A study of Mus musculus with 3 samples.

Results

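A set of 10 genes of the Notch pathway was followed across the cell types of mouse Peyer's patches (PP), the lymphoid organs of the small intestine. They are the 4 receptors Notch1, Notch2, Notch3 and Notch4, the 4 ligands Dll1, Dll4, Jag1 and Jag2, and the 2 target genes Hey1 and Heyl, chosen by symbol from the 31053 genes counted in all 3 libraries. All 10 were found, each as 1 row of the gene list. Notch signals pass between touching cells. A Delta-like or Jagged ligand on one cell binds a Notch receptor on its neighbor, the receptor is cut, and its intracellular part moves to the nucleus, joins RBPJ and switches on repressors of the Hes and Hey families. In blood vessels DLL4 acting through NOTCH1 and NOTCH4 favors arterial over venous fate and restrains sprouting, NOTCH3 and HEYL are known from pericytes and smooth muscle, and COUP-TFII, the venous nuclear receptor encoded by Nr2f2, is known to oppose Notch signaling in veins.

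Single-cell RNA-seq compared mice that overexpress COUP-TFII in endothelial cells (EC) with control mice, which asks how arterial and capillary programs respond to a venous transcription factor. The 2 EC-iCOUPOE libraries came from CDH5(PAC)CreERT2;COUP-TFIIOE/OE mice, in which tamoxifen activates a Cre driven by the Cdh5 promoter, active in endothelium, and Cre releases COUP-TFII. The 1 control library is labelled WT with the strain C57BL/6, and the study's methods describe the controls as littermates without the Cre transgene. The study also lists WT mice beside tamoxifen-treated controls without Cre, so whether the mice of the WT library received tamoxifen is not settled. All mice were 6 to 10 weeks old. By the study's methods, cells were sorted from PP of EC-iCOUPOE and control mice 14 to 19 days after tamoxifen, and cells of males and females were processed together. How many mice entered each library is not given in the sources used here. With 1 control library no test between the genotypes was possible, so every difference below is a description of these 3 libraries, and how far control mice differ among themselves could not be estimated.

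The libraries held 6080, 4959 and 1441 barcodes (control, EC-iCOUPOE replicate 1, replicate 2, the order used throughout) with 17341398, 17417260 and 3548983 unique molecular identifiers (UMIs, counted RNA molecules) and medians of 2368, 2884 and 2180 UMIs per barcode. The control library and replicate 2 shared 12 barcodes. Of the cells passing the filters, 4233, 1834 and 611 were scored female by Xist and 215, 1163 and 212 male by Y-linked genes. The rest were unresolved, and the sex make-up thus differed between the control and the EC-iCOUPOE libraries. After filtering, 5341, 4704 and 1239 cells were clustered without use of the Notch genes, and clusters were named by marker genes, so that each name below means cells resembling that type. The cell types held 403, 720 and 233 arterial EC, 1005, 1131 and 557 capillary EC (CapEC), 119, 188 and 67 capillary resident progenitors (CRP), 427, 759 and 93 EC of postcapillary venules (PCV) and 130, 221 and 90 pericytes and smooth muscle cells, and the high endothelium (HEC) of the same organ 382, 81 and 2. Lymphatic EC were found in the EC-iCOUPOE libraries alone (922 and 127 cells), whereas nearly all fibroblasts (2389 of the control, 8 and 5) and glia (205, 2 and 5) came from the control library, so these types allow no comparison of genotypes. A further cluster led by Colec12 and Ltc4s (119, 483 and 26 cells) was left unnamed. CapEC of PP and of the neighboring lamina propria were not told apart. All listed markers of each cell type were detected in every library of at least 10 cells, except that Gkn3 in the arterial EC and Abcc9 in the pericytes were at 0 in replicate 2. The clusters were named by these same markers, and detection means at least 1 UMI in the summed cells. Detection therefore gives no separate evidence of identity. Nr2f2, the overexpressed gene, had 8, 3756 and 644 UMIs in arterial EC, 21, 5777 and 1396 in CapEC, and 2, 1018 and 174 in CRP, and it was also higher in PCV, where controls express it (348, 6181 and 447 UMIs).

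Levels are given as CPM (counts per 1000000), the UMIs of a gene divided by the UMIs of all genes, summed over the cells of a type in a library, and they are compared between cell types and libraries for the same gene and never between genes. Intervals are exact Poisson intervals at 95%, and intervals of ratios are exact and condition on the summed UMIs. Both kinds cover counting error alone. An SD given over n = 3 libraries spans both genotypes and is no spread among replicates of 1 condition. A gene was called higher or lower in a cell type when it differed at least 2-fold from control in both EC-iCOUPOE libraries and had at least 50 UMIs in at least 1 library.

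**Figure D1:**
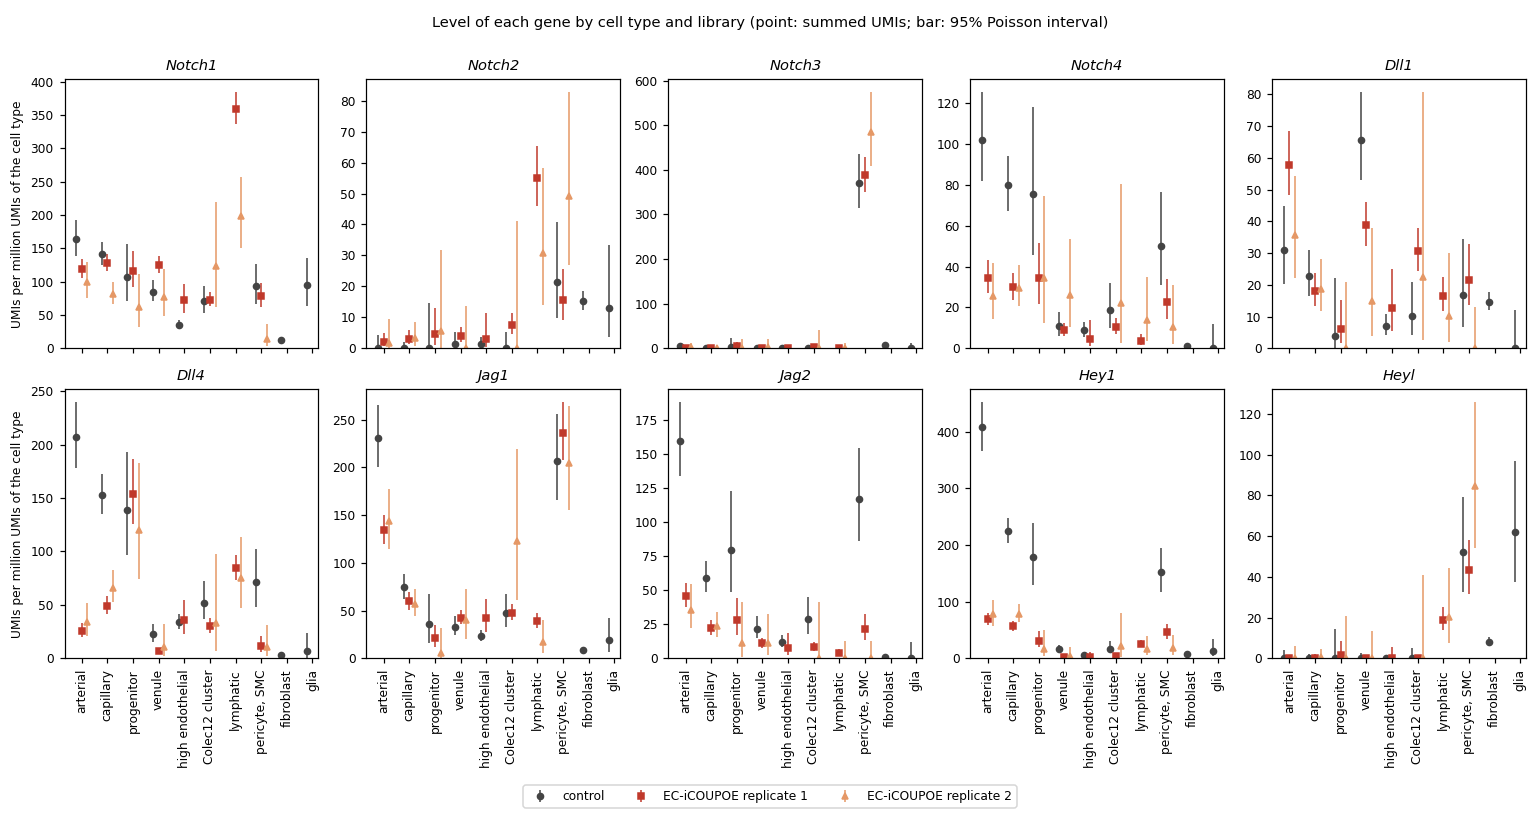
Level of each of the 10 genes in CPM (y axis, linear, a separate scale per gene) in 10 cell types (x axis) of the control library (grey circles) and EC-iCOUPOE replicates 1 (red squares) and 2 (orange triangles), with 95% Poisson intervals. Hey1, Dll4, Jag2 and Notch4 stand highest in control arterial EC, at 407, 207, 159 and 102 CPM, and far lower in both EC-iCOUPOE libraries, whereas Notch3 is high in pericytes alone, at 371, 389 and 486 CPM.

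Of the 10 genes, 7 could be compared in arterial EC and the same number in CapEC, and the same 4 genes were called lower in each: the receptor Notch4, the ligands Dll4 and Jag2, and the target Hey1. None was called higher. Over all genes compared, 2.86% were called lower and 4.29% higher in arterial EC, and 2.67% lower and 3.86% higher in CapEC. The median log2 ratio of the 7 genes was -1.56 and -2.005 (replicates 1 and 2) in arterial EC against 0.04 and -0.15 over all 5800 genes compared there, and -1.41 and -1.21 in CapEC against 0.02 and -0.13 over 6632 genes. The ratios of both EC-iCOUPOE libraries share the 1 control library. Arterial EC and CapEC each pool several clusters that the genotypes filled unequally, as described below.

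**Figure D2:**
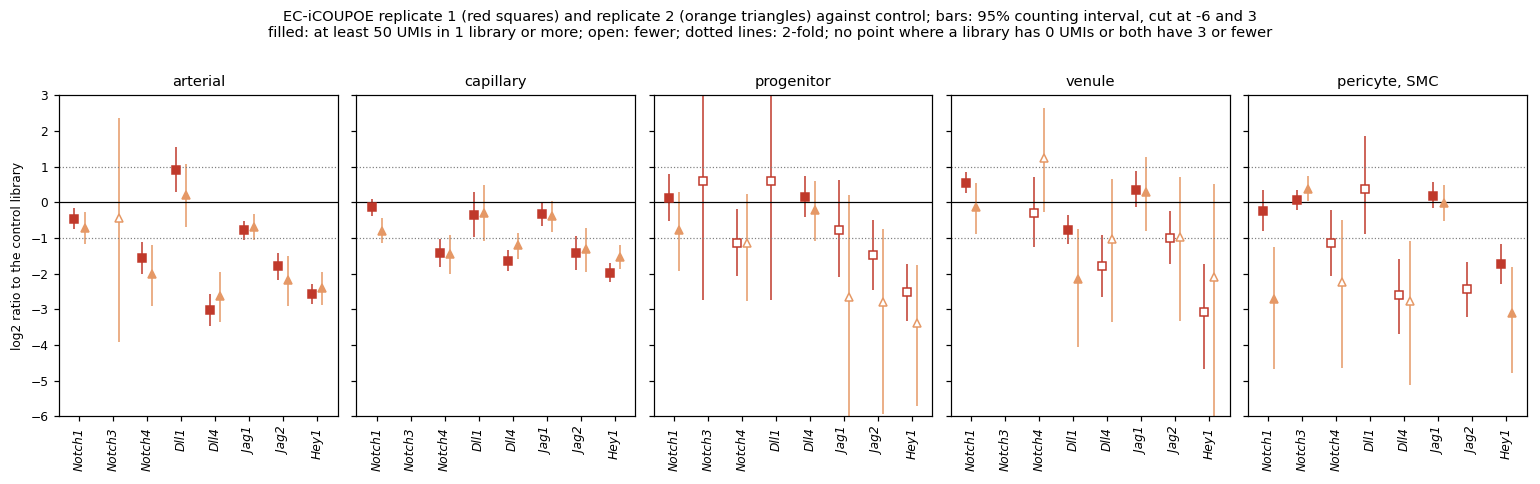
Log2 ratio of each gene's CPM in EC-iCOUPOE replicate 1 (red squares) and replicate 2 (orange triangles) to the control library, with exact 95% counting intervals cut at -6 and 3, in 5 cell types. Filled points have at least 50 UMIs in at least 1 library, open points fewer, dotted lines mark 2-fold, and a ratio with a library at 0 UMIs, or with both at 3 or fewer, has no point; Notch4, Dll4, Jag2 and Hey1 lie below -1 in both libraries in arterial EC and CapEC, and Dll4 lies at 0.15 and -0.22 in CRP.

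Among the receptors, Notch1, the most widely used Notch receptor of endothelium, was present in every endothelial type. It stood at 164, 119 and 99.8 CPM in arterial EC, at 141, 128 and 81.7 CPM in CapEC, at 107, 117 and 62.7 CPM in CRP and at 85.2, 125 and 77.6 CPM in PCV. These types overlapped within their counting intervals in most libraries, and no pair of them was apart in all 3. The log2 ratio to control was -0.59 ± 0.18 (SD, n = 2) in arterial EC and -0.46 ± 0.46 in CapEC, neither called. In PCV it was 0.56 in replicate 1 and -0.13 in replicate 2, so the EC-iCOUPOE libraries lay on opposite sides of the control. Lymphatic EC had the highest Notch1 level of each EC-iCOUPOE library, 359 CPM (interval 336 to 384) and 198 CPM (150 to 256). HEC of the control had 35.1 CPM (28.5 to 42.7), the lowest of the endothelial types, next to the dividing cells, whose 8 UMIs gave 35.8 CPM.

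Notch4, a receptor largely restricted to endothelium, was high in the vessel types at the arterial end and low in venules. In the control library it stood at 102 CPM in arterial EC (interval 81.8 to 125), 79.8 in CapEC (67.2 to 93.9) and 75.5 in CRP (45.4 to 118), and these neighbors overlapped, whereas PCV and HEC followed at 10.8 and 8.77 CPM. The EC-iCOUPOE libraries had 34.5 and 25.4 CPM in arterial EC and 29.8 and 29.4 CPM in CapEC. Neither interval reached up to that of the control, and the log2 ratios were -1.78 ± 0.31 (SD, n = 2) and -1.43 ± 0.02. Both types pool several clusters, described below. Notch4 was not called in capillary clusters 2 and 5 or in arterial clusters 8 and 10. Its log2 ratios were -0.11 and -0.98 in cluster 2 and -0.50 and 0.09 in cluster 8. They were -2.46 and -0.41 in cluster 5, and -1.54 in replicate 1 in cluster 10, each with too few UMIs for a call. Without cluster 3, pooled arterial EC did not pass the rule. In CRP, 19, 23 and 6 UMIs gave 75.5, 34.4 and 34.2 CPM, too few UMIs for a call, with log2 ratios of -1.13 and -1.14. The levels in PCV (10.8, 8.75 and 25.9 CPM from 15, 28 and 7 UMIs) overlapped between the libraries.

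Notch2 and Notch3 were receptors of other cells. Notch3 had 156, 395 and 138 UMIs in pericytes and smooth muscle, that is 371, 389 and 486 CPM, and at most 4 UMIs in any library in arterial EC, CapEC, CRP or PCV. Its level in pericytes lay above these 4 types in each of the 3 libraries with intervals apart, and its log2 ratio to control was 0.07 and 0.39. Notch2 had no UMI in the arterial EC, CapEC and CRP of the control library and at most 9 UMIs in those of the EC-iCOUPOE libraries. Lymphatic EC had 54.9 and 30.7 CPM of Notch2, pericytes 21.4, 15.8 and 49.3 CPM, and control fibroblasts 15.2 CPM (interval 12.4 to 18.4).

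Among the ligands, Dll4, the tip cell and arterial ligand, was lower in pooled arterial EC and CapEC of the EC-iCOUPOE libraries but not in CRP. CRP are a single cluster, whereas arterial EC and CapEC pool several, described below. Dll4 was not called in capillary clusters 2 and 5 or arterial cluster 8. Its log2 ratios there were -0.25 and -0.57, -0.29 and -0.56, and -0.64 and -0.54. In arterial cluster 10 they were -2.70 and -1.65, with too few UMIs for a call. Arterial EC had 181, 59 and 20 UMIs, or 207, 25.8 and 33.8 CPM, a log2 ratio of -2.81 ± 0.28 (SD, n = 2), and CapEC had 153, 49.3 and 66.1 CPM, a log2 ratio of -1.42 ± 0.30. In CRP, the progenitor-like capillary cells, Dll4 stood at 139, 154 and 120 CPM from 35, 103 and 21 UMIs. Their log2 ratios were 0.15 (interval -0.42 to 0.74) and -0.22 (-1.07 to 0.61), so a 2-fold fall lay outside the interval of replicate 1 and within that of replicate 2. In the control library arterial EC led (interval 178 to 240), apart from CapEC (135 to 172), and CRP (96.8 to 193) overlapped both. In each EC-iCOUPOE library CRP had the highest Dll4 level of the cell types as pooled here, followed by lymphatic EC with 84.3 and 75.2 CPM. The interval of lymphatic EC was apart from that of CRP in replicate 1 and overlapped it in replicate 2. Arterial cluster 8 alone stood at 156 and 168 CPM, no lower than CRP. Cluster 3, which held most arterial EC of these libraries, stood at 6.19 and 5.26 CPM. PCV had 22.4, 6.56 and 11.1 CPM, and CapEC and CRP were each above PCV in all 3 libraries with intervals apart, by 2.75 ± 0.17 and 3.54 ± 0.96 on the log2 scale (SD, n = 3 libraries).

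Jag2 was highest in control arterial EC, at 159 CPM, against 45.8 and 35.5 CPM in the EC-iCOUPOE libraries, a log2 ratio of -1.98 ± 0.26 (SD, n = 2). CapEC had 59.1, 22.2 and 23.7 CPM, a log2 ratio of -1.37 ± 0.07. Within single clusters Jag2 was called in arterial cluster 8 (-1.15 and -1.71). It was not called in arterial cluster 10 (-0.53 and -1.48) or capillary cluster 2 (-0.27 and -1.05). In capillary cluster 5 it lay above the control, at 0.71 and 0.22 from 19, 7 and 3 UMIs. Without cluster 3, pooled arterial EC did not pass the rule. In CRP, 20, 19 and 2 UMIs gave 79.4, 28.4 and 11.4 CPM, too few UMIs for a call. Lymphatic EC had 9 and 0 UMIs of Jag2, and control fibroblasts 6 UMIs, or 0.86 CPM.

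Jag1, a ligand of arterial endothelium and smooth muscle, was not called in any cell type. Arterial EC had 231, 134 and 144 CPM, a log2 ratio of -0.74 ± 0.07 (SD, n = 2), and CapEC 74.7, 59.7 and 57.2 CPM, a ratio of -0.36 ± 0.04. PCV moved slightly the other way, with 33.2, 42.5 and 40.6 CPM, but their intervals overlapped. Pericytes and smooth muscle had 207, 236 and 204 CPM. Both arterial EC and pericytes were above CapEC, CRP and PCV with intervals apart in each of the 3 libraries, arterial EC being above CapEC by 1.38 ± 0.23 and above PCV by 2.09 ± 0.62 on the log2 scale (SD, n = 3 libraries).

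Dll1, a ligand better known from lymphoid stroma, had its highest control level in PCV, at 65.7 CPM (interval 52.9 to 80.6), apart from arterial EC at 30.9 CPM (20.4 to 45.0) and CapEC at 22.9 CPM. In the EC-iCOUPOE libraries PCV had 38.7 and 14.8 CPM, the latter from 4 UMIs, with log2 ratios of -0.76 and -2.15, and arterial EC had 57.6 and 35.5 CPM, with ratios of 0.90 and 0.20. Arterial EC therefore had the highest Dll1 level in both EC-iCOUPOE libraries, apart from PCV in replicate 1 and overlapping it in replicate 2. In the Colec12 cluster Dll1 was called higher, with 7, 83 and 2 UMIs, or 10.1, 30.7 and 22.3 CPM, the only call among 4 genes compared there, where 5.12% of all genes were called higher and 1.35% lower. It passed the minimum of 50 UMIs through replicate 1 alone, and the 2 UMIs of replicate 2 gave it an interval from -2.16 to 3.53 on the log2 scale. The call was lost with TMM scaling and in female cells alone.

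Among the targets, Hey1, a repressor induced by Notch, had the order arterial EC, CapEC, CRP, PCV in the control library, at 407, 225, 179 and 15.9 CPM. Of these 4 types CapEC and CRP overlapped (203 to 248 and 130 to 239), and the other neighbors in the order were apart. The EC-iCOUPOE libraries had 69.0 and 77.8 CPM in arterial EC, 57.2 and 78.4 CPM in CapEC, 31.4 and 17.1 CPM in CRP, and 1.87 and 3.69 CPM in PCV. The log2 ratio in arterial EC was -2.48 ± 0.12 (SD, n = 2) and in CapEC -1.75 ± 0.32. After each cell was thinned to 1000 UMIs, 32.5%, 6.94% and 6.44% of arterial EC held a Hey1 UMI, and 49.4%, 15.8% and 15.0% did without thinning. In a small cluster led by Prss34 and Igkc, genes of immune cells, no cell held one (0 of 18 control cells and 0 of 31 cells of replicate 1, median depths 1471 and 4232 UMIs against 1825 and 2753 in arterial EC), for which the exact binomial interval reaches up to 18.5% and 11.2%. In CRP, 45, 21 and 3 UMIs and in PCV 22, 6 and 1 UMIs gave log2 ratios between -2.10 and -3.39, with no call because no library reached 50 UMIs. In the EC-iCOUPOE libraries the Hey1 intervals of pooled arterial EC and CapEC overlapped. Most cells of these pools lay in clusters with few control cells, described below. In arterial cluster 8 alone Hey1 stood at 258 and 252 CPM in these libraries. It stood at 50.2 and 79.0 CPM in cluster 10 and at 42.2 and 44.7 CPM in cluster 3. Whether arterial and capillary cells became more alike was not tested. Both pooled types remained above PCV with intervals apart in all 3 libraries, by 4.76 ± 0.41 and 4.39 ± 0.55 on the log2 scale (SD, n = 3 libraries). Lymphatic EC had 25.6 and 17.1 CPM.

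Heyl was nearly absent from blood endothelium, with 0 UMIs in arterial EC and PCV of every library and 0, 1 and 1 UMIs in CapEC. Pericytes and smooth muscle had 22, 44 and 24 UMIs, or 52.4, 43.3 and 84.5 CPM, above arterial EC, CapEC, CRP and PCV in all 3 libraries with intervals apart. Control glia had 62.1 CPM (interval 37.4 to 97.0), lymphatic EC 18.9 and 20.5 CPM, and control fibroblasts 8.03 CPM. Of 100 pairs formed by the 10 genes and the 5 types arterial EC, CapEC, CRP, PCV and pericytes, 24 were apart in the same direction in all 3 libraries. The share of such pairs over all genes was not computed, so this count does not set the 10 genes apart from others.

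In the remaining types few of the 10 genes had enough UMIs. CRP allowed 2 genes (Notch1 and Dll4) and PCV 3 (Notch1, Dll1 and Jag1), and none was called, where 5.95% and 3.06% of all genes were called higher and 2.69% and 1.71% lower. The dividing cells allowed Notch1 alone, with 35.8, 85.0 and 63.6 CPM, which was not called against 9.49% of all genes called higher and 1.63% lower. Fibroblasts of the control had 12.8 CPM of Notch1, 14.6 of Dll1, 9.17 of Jag1 and 7.17 of Hey1, and 2.87 CPM of Dll4. Blood endothelial markers summed to 232 CPM in these fibroblasts against 7882 CPM in control arterial EC, with 9 of 9 detected, and their part in the fibroblast values was not tested.

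Promoter sequences are shown for Dll4 and Notch4, chosen because they hold a match among the genes called lower. Of those 4 genes Dll4, Notch4 and Jag2 were matched in the RefSeq promoter table (GRCm38.p6), as were 5 of the other members, and Hey1 and Heyl were not. The table was searched on both strands for GGTCA, the core of the half-site bound by COUP-TFII and many other nuclear receptors, for TGGGAA, the core of the RBPJ site, and for CACGTG, the E-box bound by Hey and other factors. The window of Dll4 is chr2:119325534-119325783 on the plus strand, the 250 bases before its start on that chromosome (gene at 119325784 to 119335962), and that of Notch4 is chr17:34564045-34564267 on the plus strand, the 223 bases before that gene (34564268 to 34588503), as GENCODE vM21 places both. Capitals mark GGTCA or its reverse complement TGACC.
Dll4: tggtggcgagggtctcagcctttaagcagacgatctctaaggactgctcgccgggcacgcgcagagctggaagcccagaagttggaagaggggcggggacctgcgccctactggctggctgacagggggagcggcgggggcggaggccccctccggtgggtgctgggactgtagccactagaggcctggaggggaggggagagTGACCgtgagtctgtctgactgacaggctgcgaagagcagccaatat
Notch4: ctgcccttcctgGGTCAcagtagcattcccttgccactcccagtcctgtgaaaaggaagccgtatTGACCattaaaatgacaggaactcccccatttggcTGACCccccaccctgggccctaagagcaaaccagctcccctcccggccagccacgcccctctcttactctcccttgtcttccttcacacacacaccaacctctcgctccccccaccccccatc
Dll4 held 1 such match and Notch4 held 3, and neither held the RBPJ core or the E-box. The letters GGTCA occur in 35.2% of 32851 promoter windows of 250 bases and in 32.3% of windows of 223 bases, so a match is common, and it describes letters and no binding. The RBPJ core occurs in 21.6% and the E-box in 6.02% of the windows of 250 bases. The window of Jag2, also called lower, held none of the 3 motifs, nor did those of Notch1, Notch2, Notch3 and Jag1, and Dll1, listed with 2 windows, held GGTCA at 2 places in 1 of them.

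The clusters that make up arterial EC and CapEC were filled unequally by the genotypes. Arterial EC held 3 clusters. Cluster 8, led by Gkn3 and Gja5, held 265, 96 and 28 cells, cluster 10, led by Bmp2 and Alpl, 130, 84 and 53, and cluster 3, led by Enpp6 and Cyp1a1, 8, 540 and 152. In CapEC, cluster 2, led by Scgb3a1 and Prom1, held 413, 181 and 151 cells, cluster 5, led by Car4, 475, 88 and 52, and cluster 0, led by Rgcc, 22, 825 and 345. Most EC-iCOUPOE cells of both classes therefore lay in clusters with few control cells. These clusters also resembled their named type least. The mean log2 ratio of the arterial markers to the other blood endothelial cells was 2.48, 1.15 and 0.16 in clusters 8, 10 and 3. That of the capillary markers was 1.21, 1.63 and 0.36 in clusters 2, 5 and 0. A lower level in the pooled arterial EC or CapEC is therefore also a difference between clusters. The 10 arterial markers summed to 6337, 3146 and 3313 CPM in arterial EC, and the 8 capillary markers to 2560, 1952 and 2763 CPM in CapEC.

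Values were also taken within the 4 clusters that held at least 25 cells of every library, where Jag2 was called in cluster 8, Hey1 in cluster 10, and neither Dll4 nor Notch4 in any. In cluster 8 Hey1 stood at 446, 258 and 252 CPM, a log2 ratio of -0.81 ± 0.03 (SD, n = 2), and Dll4 at 243, 156 and 168 CPM, a ratio of -0.59 ± 0.07. Neither passed 2-fold. Jag2 was called, with 78, 17 and 3 UMIs and a ratio of -1.43 ± 0.40, where 2.94% of all genes were called lower, and Notch4 stood at -0.20 ± 0.42. In cluster 10 Hey1 was called, with 335, 50.2 and 79.0 CPM and a ratio of -2.41 ± 0.46, where 3.58% of genes were called lower. Dll4 in cluster 10 had 40, 5 and 6 UMIs, too few for a call, at -2.17 ± 0.74. Notch4 there had 18, 5 and 0 UMIs, also too few, a log2 ratio of -1.54 in replicate 1. Jag2 stood at -1.01 ± 0.67. The Hey1 ratio was thus larger in cluster 10 than in cluster 8, a difference that was not tested.

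In the capillary clusters none of the 4 genes was called, where 2.21% (cluster 2) and 3.15% (cluster 5) of genes were called lower. Hey1 stood at 284, 219 and 216 CPM in cluster 2, a log2 ratio of -0.39 ± 0.01 (SD, n = 2). Nr2f2 there had 7, 402 and 141 UMIs. In replicates 1 and 2, 62 and 78 cells of cluster 2 held no Nr2f2 UMI, and 77 and 36 held 2 or more. Whether the Hey1 level of the cluster depends on this was not tested. Dll4, Jag2 and Notch4 stood at -0.41 ± 0.23, -0.66 ± 0.55 and -0.54 ± 0.61 in cluster 2. In cluster 5 Hey1 stood at -0.69 ± 0.19 and Dll4 at -0.42 ± 0.19, and Jag2 was slightly above the control, at 0.47 ± 0.35 from 19, 7 and 3 UMIs. Notch4 in cluster 5 stood at 69.2, 12.6 and 52.2 CPM from 49, 2 and 5 UMIs, too few for a call, with log2 ratios of -2.46 (interval -5.55 to -0.53) and -0.41 (-2.09 to 0.91). The clusters filled by EC-iCOUPOE cells had low levels of Hey1 and Dll4. Hey1 stood at 42.2 and 44.7 CPM and Dll4 at 6.19 and 5.26 CPM in cluster 3, and Hey1 at 24.3 and 30.6 CPM and Dll4 at 23.0 and 39.2 CPM in cluster 0. Without cluster 3, arterial Hey1 and Dll4 still passed the rule (mean log2 ratios of -1.45 and -1.21), whereas Jag2 and Notch4 did not (-1.04 and -1.03), and Jag1 moved from -0.74 to 0.04.

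**Figure D3:**
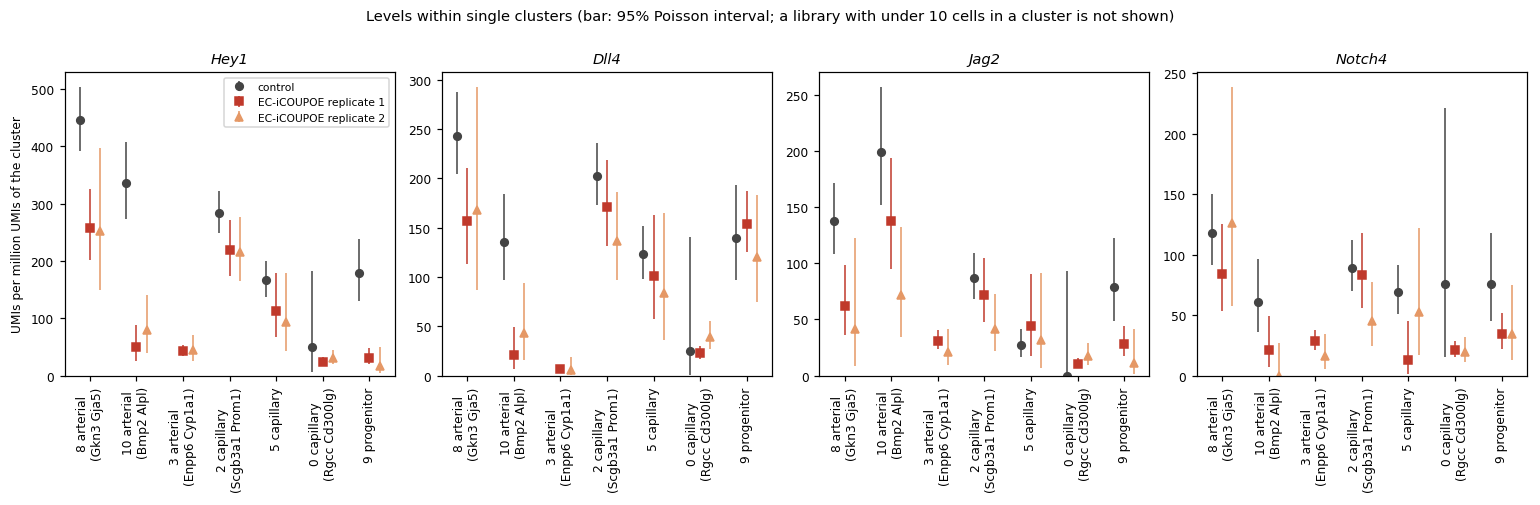
Levels of Hey1, Dll4, Jag2 and Notch4 in CPM (y axes) within single clusters (x axis) of arterial EC, CapEC and CRP, by library, with 95% Poisson intervals; a library with fewer than 10 cells in a cluster is not shown. In cluster 2 Hey1 stands at 284, 219 and 216 CPM, in cluster 5 Notch4 lies at 69.2, 12.6 and 52.2 CPM, and in cluster 10 Hey1 falls from 335 CPM to 50.2 and 79.0 CPM. In clusters 3 and 0, which hold most arterial EC and CapEC of the EC-iCOUPOE libraries, Hey1 lies between 24.3 and 44.7 CPM in these libraries.

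Cells of the EC-iCOUPOE libraries were also grouped by their own Nr2f2 UMIs (0, 1, or 2 and more). In CapEC of replicate 1, Hey1 stood at 202, 123 and 36.2 CPM in these groups, and in replicate 2 at 130.5, 108 and 52.8 CPM, against 227 CPM in control cells without an Nr2f2 UMI. The group with 2 or more Nr2f2 UMIs was apart from the group with 0 in both replicates. Dll4 followed the same order in CapEC, at 169, 119 and 30.4 CPM in replicate 1 and 106, 89.9 and 46.2 CPM in replicate 2. In arterial EC, Hey1 stood at 221, 68.0 and 60.9 CPM in replicate 1 and at 189, 86.7 and 57.4 CPM in replicate 2. Control arterial EC without an Nr2f2 UMI had 417 CPM (interval 375 to 463). The arterial groups with 0 Nr2f2 UMIs (142 to 329 and 100 to 322) lay below it with intervals apart. In CapEC the group with 0 overlapped the control (205 to 250) in replicate 1 (149 to 268) and lay below it in replicate 2 (89.3 to 184). The groups also differed in depth, with medians of 1814, 1822 and 2358 UMIs in CapEC of replicate 1, and in the clusters they came from. Within cluster 2 Hey1 stood at 276, 241 and 167 CPM in replicate 1, the same order with overlapping intervals, and at 198, 202 and 268 CPM in replicate 2, where the order was not kept. Within cluster 5 of replicate 1 it stood at 260, 102 and 58.5 CPM from 9, 4 and 5 UMIs, and within cluster 8 of replicate 1 at 357 CPM in cells without an Nr2f2 UMI and 235 CPM in those with 2 or more, again with overlapping intervals. In cluster 0 Hey1 stood at 0, 10.4 and 25.5 CPM in replicate 1, the reverse order, and at 96.9, 36.5 and 25.6 CPM in replicate 2. In cluster 3 of replicate 1, cells with 1 Nr2f2 UMI had 9.02 CPM and those with 2 or more 43.3 CPM. In replicate 2 they had 57.9 and 46.3 CPM. Intervals overlapped within clusters 0 and 3, which hold most CapEC and arterial EC of the EC-iCOUPOE libraries. In CRP of replicate 1, cells with 2 or more Nr2f2 UMIs had 165 CPM of Dll4 (interval 134 to 202), where control CRP without Nr2f2 had 137 CPM. For Hey1 these cells of replicate 1 had 24.1 CPM (13.2 to 40.5), where control CRP without Nr2f2 had 177 CPM.

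**Figure D4:**
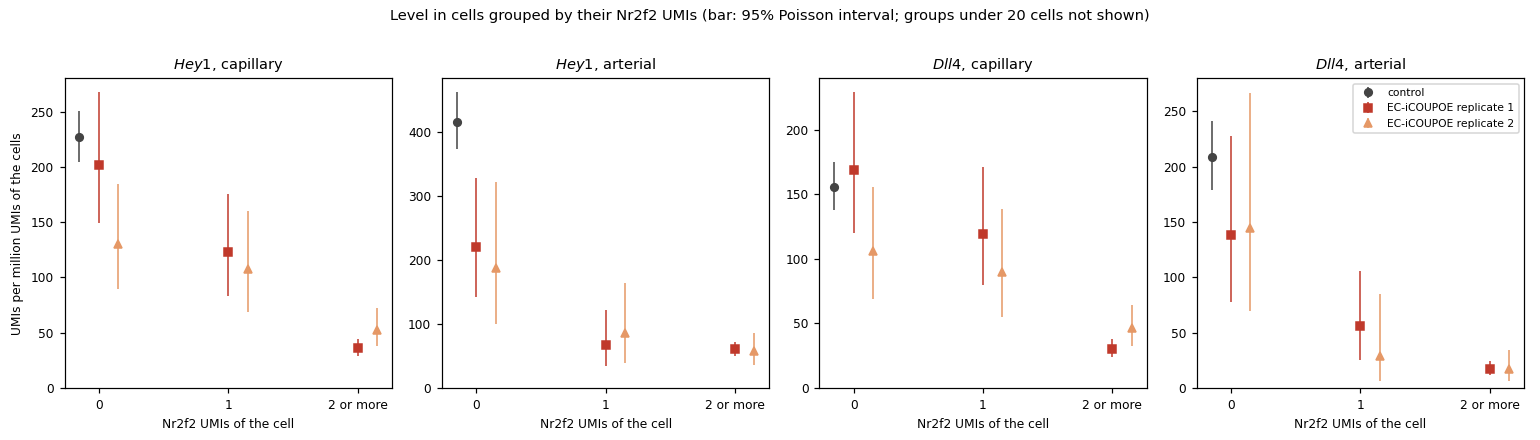
Levels of Hey1 and Dll4 in CPM (y axes) in CapEC and arterial EC grouped by the Nr2f2 UMIs of each cell (x axis), by library, with 95% Poisson intervals; groups under 20 cells are not shown. In CapEC of replicate 1 Hey1 goes from 202 through 123 to 36.2 CPM, and control cells, nearly all without an Nr2f2 UMI, stand at 227 CPM.

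Pericytes and smooth muscle, in which the Cdh5 promoter is not known to act, were compared by the same rule. Nr2f2 was nevertheless higher in them, also among pericytes with at most 1 UMI of the 9 blood endothelial markers, at 367, 785 and 677 CPM with the control interval (244 to 530) apart from both others, and at 247, 1298 and 601 CPM among those with 2 or more. Of 4 genes compared, Hey1 was called lower, with 64, 47 and 5 UMIs, or 152, 46.3 and 17.6 CPM and a log2 ratio of -2.42 ± 0.99 (SD, n = 2), where 1.75% of all genes were called lower and 2.34% higher. In female cells alone its ratio was -2.98, with too few UMIs for a call. Jag2 had 49, 22 and 0 UMIs and Dll4 30, 12 and 3 UMIs, below the minimum of the rule, and Notch3 and Jag1 stood at 0.23 ± 0.23 and 0.08 ± 0.15. The 9 blood endothelial markers were all detected in the pericytes of each library and summed to 3469, 4689 and 676 CPM. Among pericytes with at most 1 UMI of these markers (39, 48 and 51 cells), Dll4, Jag2 and Dll1 had no UMI in any library, Notch4 had 0, 1 and 1, and Hey1 had 3, 2 and 1, or 39.3, 15.7 and 6.70 CPM with overlapping intervals. Notch3 (328, 510 and 530 CPM), Jag1 (197, 361 and 188 CPM) and Heyl (39.3, 62.8 and 80.4 CPM) remained in them. Among pericytes with 2 or more such UMIs (91, 173 and 39 cells), Hey1 stood at 178, 50.7 and 29.7 CPM and Dll4 at 87.3, 13.5 and 22.3 CPM. The part of endothelial RNA in the lower Hey1 of pericytes was not tested.

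**Figure D5:**
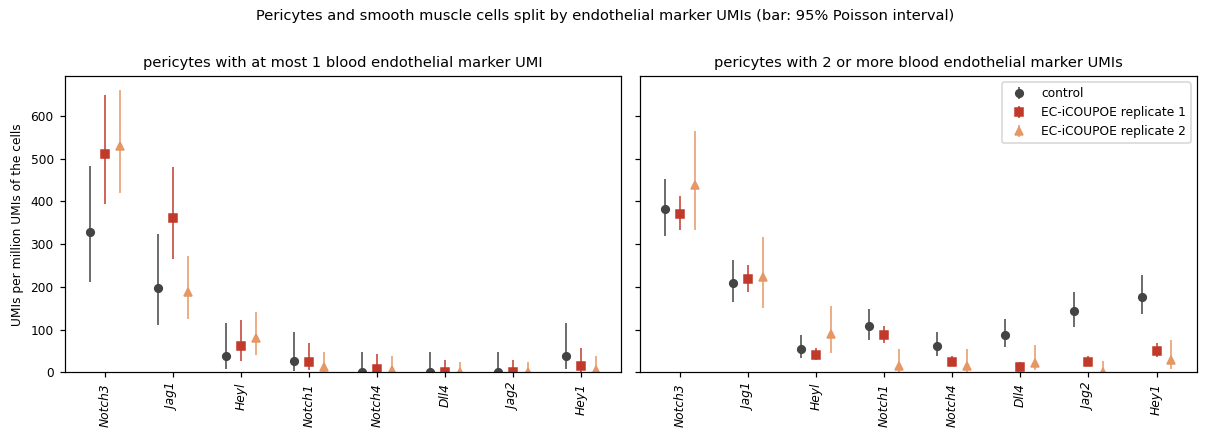
Levels of 8 genes in CPM (y axis) in pericytes and smooth muscle cells with at most 1 UMI (left) and with 2 or more UMIs (right) of the 9 blood endothelial markers, by library, with 95% Poisson intervals. Notch3, Jag1 and Heyl are present in both panels, whereas Dll4 and Jag2 are at 0 in the left panel and at 87.3 and 143 CPM in the control library in the right panel.

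Of 40 further Notch pathway genes (targets, modifying enzymes, proteases, the nuclear complex and regulators), 20 could be compared in arterial EC, of which Nrarp and Mfng were called lower and Dtx3 higher, and 24 in CapEC, of which Nrarp and Mfng were called lower. The shares over all genes were 2.86% lower and 4.29% higher in arterial EC and 2.67% lower and 3.86% higher in CapEC. Their median log2 ratios were -0.02 and -0.47 in arterial EC and -0.01 and -0.04 in CapEC. Nrarp, a Notch target that feeds back on the pathway, stood at 153, 40.6 and 57.5 CPM in arterial EC and at 84.2, 31.9 and 29.4 CPM in CapEC, log2 ratios of -1.67 ± 0.36 and -1.46 ± 0.08 (SD, n = 2). Mfng, a glycosyltransferase that modifies Notch receptors, stood at 104, 14.8 and 6.77 CPM in arterial EC and at 108, 43.0 and 42.5 CPM in CapEC. Dtx3, of the Deltex family of ubiquitin ligases, had 10, 88 and 31 UMIs in arterial EC, a log2 ratio of 1.97 ± 0.32. Levels of the 40 genes within single clusters were not taken. A difference between the pooled clusters is therefore not told apart from one within them.

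Hes1, a target of Notch and of other signals, did not follow Hey1. Its levels were 368, 108 and 345 CPM in arterial EC and 317, 157 and 490 CPM in CapEC, so replicate 1 lay below the control in both types, whereas replicate 2 lay near it in arterial EC and above it in CapEC. Hey2, an arterial target, had 5, 13 and 1 UMIs in arterial EC and 22, 7 and 12 in CapEC, too few for a call. None of the 40 was called in CRP (8 compared), PCV (25) or pericytes (8). Over all genes there, 5.95%, 3.06% and 2.34% were called higher and 2.69%, 1.71% and 1.75% lower. With so few genes compared, the lack of a call does not set them apart from others. In the Colec12 cluster (23 compared) Numb, a Notch antagonist, was called higher, with 2 UMIs in replicate 2, where 5.12% of all genes were called higher and 1.35% lower. In dividing cells Hes1 (4, 81 and 22 UMIs) and Snw1 (9, 79 and 9 UMIs) were called higher among 6 compared, where 9.49% of all genes were called higher and the median log2 ratio over all genes was 0.30 and 0.11.

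Across 28 combinations of cell type and library with at least 20 cells, the genes outside the pathway most like each member by Pearson's correlation of log2(CPM + 10) among 10050 genes were Ssu2 (0.91), Sema3g (0.89) and Prom1 (0.87) for Hey1, and Tcf4 (0.92), Efna1 (0.85) and Mgll (0.80) for Dll4. For Jag1 they were Lamb2 (0.91), Epb41 (0.76) and Zbtb10 (0.76). Notch3 was most like the smooth muscle genes Myh11 and Lmod1 and like Nrip2 (0.99 each), and Heyl like Ndrg2 (0.97), Fxyd1 (0.96) and Plce1 (0.96). Points of 1 library share depth and free RNA, and Sema3g, Prom1 and Myh11 were also among the markers that named the clusters.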

How the data were processed

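Peyer's patch endothelial cells were assayed by droplet-based 3′ single-cell RNA-seq in 3 libraries. The authors counted UMIs with Cell Ranger against mm10, and the deposited values are raw UMI counts per gene and barcode (version 3.0.2 in the labels and 2 file headers, 3.1.0 in the header of EC-iCOUPOE replicate 1). Cells under 500 genes or 1000 UMIs, or over 10% mitochondrial UMIs, were left out. Doublets were called with Scrublet in scanpy 1.11.5 (expected rate 6%) and left out (132, 46 and 4 cells). Integration and clustering used Seurat 5.3.0 under R 4.3.3 (2000 variable genes without Notch and sex-linked genes, reciprocal PCA, 30 components, 20 neighbours, Louvain resolution 1), first over all cells and then over blood endothelium, from which 39 cells richer in markers of another type were left out. Clusters were named by their highest-scoring marker list. In the second clustering they were left unnamed where a second list came within 0.2, a margin set after seeing the data. In the first, a cluster led by Fabp6 and Reg3b (28, 161 and 34 cells) scored highest for epithelium. It was kept as blood endothelium because most of its cells held more blood endothelial than epithelial marker UMIs. A cluster of 99 control cells was left unnamed there, because its leading genes held a fibroblast marker and none of its best list. UMIs were summed per cell type and library with Python 3.11.15 and scipy 1.17.1, and types with under 10 cells in a library were not compared. The 2-fold rule was run on simulated Poisson counts with planted changes and no spread between libraries. The run therefore cannot show how often the rule calls genes where control mice differ. A floor of 3 UMIs stood in for 0 in ratios. Alternatives were other minimums, TMM scaling (edgeR 4.0.16), other clusterings, doublets kept, 1 EC-iCOUPOE library left out, 1 sex, and single clusters. All 10 genes were named in every type, of the other pathway genes those called in an endothelial type and Hes1, Hey2 and Nrarp, and for 5 genes the 3 most alike. A further pathway gene is not reported here. The genes and lists were chosen with earlier results of these data known. At the depth of CRP in replicate 2 (175402 UMIs), 1 UMI stands at 5.70 CPM.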

Additional observations from a re-analysis of the deposited data

Results flagged for a closer look

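Some genes moved in opposite directions in different cell types, with both EC-iCOUPOE libraries on one side of the control in one type and on the other side in the other type. None of these differences was tested, and each rests on the same 1 control library. They are given as differences of mean log2 ratios. Notch1 was above the control in dividing cells (1.04) and in the Colec12 cluster (0.42) and below it in arterial EC (-0.59), CapEC (-0.46) and pericytes (-1.48), differences of 1.63, 1.503 and 2.52 for dividing cells and of 1.00, 0.88 and 1.90 for the Colec12 cluster. The dividing ratios rest on 8 control UMIs. The pericyte ratios were -0.24 and -2.72, the latter from 4 UMIs, and pericytes with at most 1 endothelial marker UMI held 2, 3 and 2 Notch1 UMIs. In clusters 2, 5 and 8 the replicates had opposite signs (0.20 and -0.41, 0.26 and -0.42, 0.21 and -0.63). In cluster 10 both were below the control (-0.23 and -0.41). Dll1 was above the control in arterial EC (0.55) and in the Colec12 cluster (1.37) and below it in CapEC (-0.31) and PCV (-1.46), differences of 0.86 and 2.01 for arterial EC and of 1.68 and 2.83 for the Colec12 cluster. Jag1 was above the control in PCV (0.32) and in the Colec12 cluster (0.68) and below it in arterial EC (-0.74) and CapEC (-0.36), differences of 1.06 and 0.68 for PCV and of 1.42 and 1.04 for the Colec12 cluster. The lower pooled values were not kept in most single clusters. Jag1 ratios were -0.01 and 0.35 in arterial cluster 8 and 0.46 and 0.24 in arterial cluster 10. In capillary cluster 2 they were 0.24 and -0.08, and in capillary cluster 5 -1.09 and -0.78 from 38, 4 and 3 UMIs. Of these ratios, that of Dll1 in the Colec12 cluster alone passed the 2-fold rule.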

How the results depend on the processing

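The 10 called ratios of the members kept their sign in 101 of 102 alternatives and passed 2-fold in 84. The 84 were counted without the minimum of 50 UMIs, and include Dll4 and Notch4 in cluster 10. None of the genes called in CapEC passed 2-fold within clusters 2 or 5. Of those called in arterial EC, Jag2 alone passed within cluster 8. Jag2 in CapEC reversed within cluster 5 (0.47 against -1.37). The main counts of called members were 4 in arterial EC, 4 in CapEC, 1 in the Colec12 cluster, 1 in pericytes and 0 elsewhere. With a minimum of 20 UMIs, and likewise with none, they were 3 in CRP (Notch4, Jag2 and Hey1 lower), 2 in PCV, 1 in dividing cells and 4 in pericytes. For these and the following settings the share over all genes was not computed, except for genes called lower within clusters 2, 5, 8 and 10. The counts therefore do not show whether the listed genes differ from others at those settings. Male cells alone gave 1 in arterial EC (Jag1, from 23 control cells) and 0 in CapEC, and female cells alone 0 in the Colec12 cluster and 0 in pericytes. Arterial EC without cluster 3 gave 2, cluster 8 and cluster 10 gave 1 each, and clusters 2 and 5 gave 0. At resolution 0.6 CRP gave 1 (Hey1). Doublets kept and libraries merged without integration each gave 2 in pericytes, pericytes with at most 1 endothelial UMI gave 0, and TMM scaling gave 0 in the Colec12 cluster. Leaving out 1 EC-iCOUPOE library gave 0 to 1 members in PCV (Dll1 without replicate 1), 0 to 1 in dividing cells (Notch1 without replicate 2), 1 to 2 in the Colec12 cluster and 1 to 2 in pericytes, and of the other pathway genes 4 to 5 (against 3) in arterial EC, 0 to 2 in CRP, 0 to 6 in PCV, 2 to 9 (against 2) in the Colec12 cluster and 0 to 2 in pericytes, the higher count coming without replicate 1. A minimum of 20 UMIs gave 2 other pathway genes in PCV. The causes were not tested, apart from fewer UMIs or cells where a setting itself removes them. Values within arterial clusters, without cluster 3 and in pericytes with at most 1 endothelial UMI were chosen after seeing the data. Pairs of types apart numbered 25 and 27 at the other resolutions, again without a share over all genes. Merging gave too few CRP and PCV to compare, and male cells too few CRP, dividing cells, Colec12 cells and pericytes. No paired analysis was possible because the control library carries no replicate number shared with a pair of EC-iCOUPOE libraries.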
